A study of Caenorhabditis elegans with 4 samples.

Results

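The regions described here are the peaks of the nuclear protein ZFP-1 on the left part of the X chromosome of Caenorhabditis elegans. They were chosen by position alone: every peak of the series list on X whose midpoint lies below base 6140000 of WormBase WS220. This gave 1214 of the 13878 series-list peaks, or 8.75% of the list and 33.1% of the peaks on X. The same window held 284 of the 3559 peaks of ChIP replicate 1 (7.98%) and 572 of the 6371 peaks of ChIP replicate 2 (8.98%). Chromatin immunoprecipitation and sequencing (ChIP-seq) was done on whole L3 larvae of the wild-type strain N2, kept at 20 degrees Celsius and labelled as males and hermaphrodites together. The ZFP1 ChIP group has 2 replicates, made with a polyclonal rabbit antibody that was affinity-purified, and the input DNA group has 2 replicates for which no peak list was used here. Whether the replicates were separate cultures is not said, so differences between them may be technical only. The peak lists hold no read counts, and the depth behind each peak is unknown.

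ZFP-1 is a zinc-finger protein of the nucleus, related to mammalian MLLT10 (AF10), and works with DOT-1.1, an enzyme that methylates histone H3 within nucleosomes of transcribed genes. The X chromosome of this species is regulated apart from the autosomes: in hermaphrodites a condensin-based dosage compensation complex lowers its transcription, and in the germ line much of it is silent. Autosomes have a gene-dense centre between repeat-rich arms, whereas X is more even along its length. The left part of X was therefore set against the rest of X, and against the left arms of chromosomes II to V, which lie at the same end of their chromosomes. The rest of X was divided into a middle and a right part of equal length, meeting at 11.9 Mb, and the left arms were taken to end at 4.9 Mb on II, 3.7 Mb on III, 3.9 Mb on IV and 5.9 Mb on V.

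ZFP-1 peaks were nearly as dense on the left part of X as on the rest of X. With the arm ends used here, they were at least 2.03 times as dense, in each list, as on the left arms of the autosomes. The left part held 198 series-list peaks per Mb (95% Poisson interval 187 to 209), against 206 in the middle part of X and 218 in the right part. The ratio of the left part to the rest of X was 0.934 (95% interval 0.871 to 1.00), which did not pass the exact binomial test (adjusted p = 0.147 over 30 tests). Replicate 1 had 46.3 peaks per Mb on the left part and 52.1 on the rest of X, a ratio of 0.888 (0.768 to 1.02). Replicate 2 had 93.2 on the left part and 96.1 on the rest of X, a ratio of 0.97 (0.875 to 1.07). Neither ratio passed (exact binomial test, adjusted p = 0.241 in replicate 1 and 0.654 in replicate 2).

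Against the left arms the difference was large in every list. The series list had 198 peaks per Mb on the left part of X and 83.7 per Mb on the 4 left arms together, a ratio of 2.36 (2.19 to 2.55, exact binomial test, adjusted p = 5.02e-103). Replicate 1 had 46.3 against 22.8 peaks per Mb, a ratio of 2.03 (1.74 to 2.36, exact binomial test, adjusted p = 5.94e-18). Replicate 2 had 93.2 against 43.4 peaks per Mb, a ratio of 2.15 (1.92 to 2.39, exact binomial test, adjusted p = 2.36e-40). Among the single arms, the ratio in the series list was 2.65 to the left arm of II, 1.81 to III, 2.26 to IV and 2.72 to V, and III was the densest of the 4 arms in all 3 lists. Peaks close together are not independent, so these tests and intervals cover counting error over peaks only. In the series list the ratio changed with the score of the peaks, which is the authors' own per peak and has no stated scale. Among the highest-scoring 10% of series-list peaks the ratio to the left arms was 0.964 (0.732 to 1.26), and did not pass the exact binomial test (unadjusted p = 0.843). Among the highest-scoring 10% of each replicate list it was 1.97 (1.14 to 3.35, exact binomial test, unadjusted p = 0.0124) in replicate 1 and 2.64 (1.784 to 3.901, exact binomial test, unadjusted p = 7.88e-07) in replicate 2, so the change was not seen in the replicates. The series-list ratio also changed with the arm ends and with merging. With each arm ending at the same share of its chromosome as the left part of X, it was 1.99 (1.86 to 2.13). With peaks under 1 kb apart merged it was 1.92 (1.74 to 2.11), and with peaks under 5 kb apart merged it was 1.36 (1.18 to 1.56). Which libraries went into the series list is not given in the sources used here, so it cannot be taken as independent of the replicate lists.

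**Figure D1:**
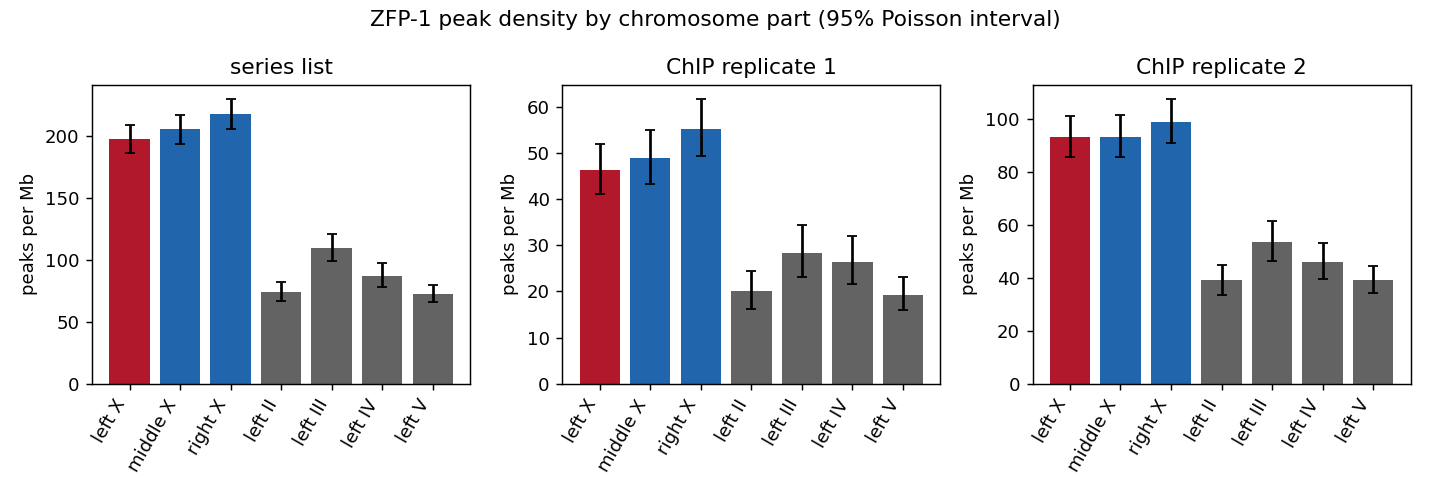
Bars give ZFP-1 peaks per Mb (vertical axis) in the left, middle and right parts of X and in the left arms of II to V, in the series list and in each ChIP replicate, and error bars are 95% Poisson intervals over peaks. The left part of X stands at 198, 46.3 and 93.2 peaks per Mb in the series list, replicate 1 and replicate 2, close to the other parts of X and above every left arm.

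ZFP-1 sites were not spread evenly within the left part. In its 12 full windows of 500 kb, the series list held, from the left end inward, 39, 97, 77, 45, 118, 121, 100, 115, 110, 134, 103 and 111 peaks. The 4 outermost windows, which make up the first 2 Mb, held 39 to 97 peaks, and all of the 8 inner windows held more, from 100 to 134. In replicate 2 the outer windows held 17, 49, 38 and 20 peaks and the inner windows 43 to 64, so that window 2 alone of the outer windows lay within the inner range. In replicate 1 the ranges overlapped, with 9, 26, 22 and 10 peaks in the outer windows and 14 to 31 in the inner windows. Windows 1 and 4 were the lowest in all 3 lists, and window 10 was the highest in the series list and in replicate 2. In replicate 1 the highest was window 6, with 31 peaks, followed by windows 9 and 10 with 30 each.

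The windows of the rest of X held 79 to 128 series-list peaks (22 windows), and 3 windows of the left part lay below that range. Windows of the left arms held 15 to 75 peaks (34 windows), and 10 of the 12 windows of the left part lay above all of them. In each replicate 9 of the 12 did. Counts of the 12 windows correlated between the replicates with Pearson r = 0.85 and Spearman rho = 0.74, as a description over positions of 1 chromosome.

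The outer stretch had fewer peaks per Mb than the remainder of the left part, and a larger share of high-scoring peaks in the series list. The first 2 Mb held 129 series-list peaks per Mb, the next 2 Mb held 227, and the stretch from 4 Mb to 6.14 Mb held 235. Replicate 1 gave 33.5, 46.0 and 58.4 peaks per Mb for these stretches, and replicate 2 gave 62.0, 108.5 and 107.9. Peaks of the first 2 Mb had a median series score of 18.7, against 11.8 in the next 2 Mb and 13.8 beyond. Within the first 2 Mb, window 1 had a median of 9.69, the lowest of the 12 windows. Windows 2, 3 and 4 had medians of 18.2, 20.9 and 19.7. The highest-scoring 10% of the whole series list took in 31 of the 258 peaks of the first 2 Mb, 17 of 454 (3.74%) in the next 2 Mb and 26 of 502 (5.18%) beyond. In replicate 1 those shares were 13.4%, 8.70% and 6.40%, and in replicate 2 they were 11.3%, 5.99% and 10.8%. Window 1 alone had 4 of 39 in the series list, 0 of 9 in replicate 1 and 1 of 17 in replicate 2. The last 2 Mb of X, at its right end, held 195 series-list peaks per Mb, 50.0 in replicate 1 and 95.5 in replicate 2. These stretches were compared after the window counts had been seen, so no test is given. Without the first 2 Mb of X, the series-list ratio of the left part to the rest of X was 1.09. Its interval (1.01 to 1.18) does not allow for leaving out the windows with the lowest counts, and the rest of X kept its own end. In replicate 1 the stretches beyond 2 Mb, at 46.0 and 58.4 peaks per Mb, lay on both sides of the rest of X (52.1). In replicate 2 both, at 108.5 and 107.9, lay above it (96.1).

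**Figure D2:**
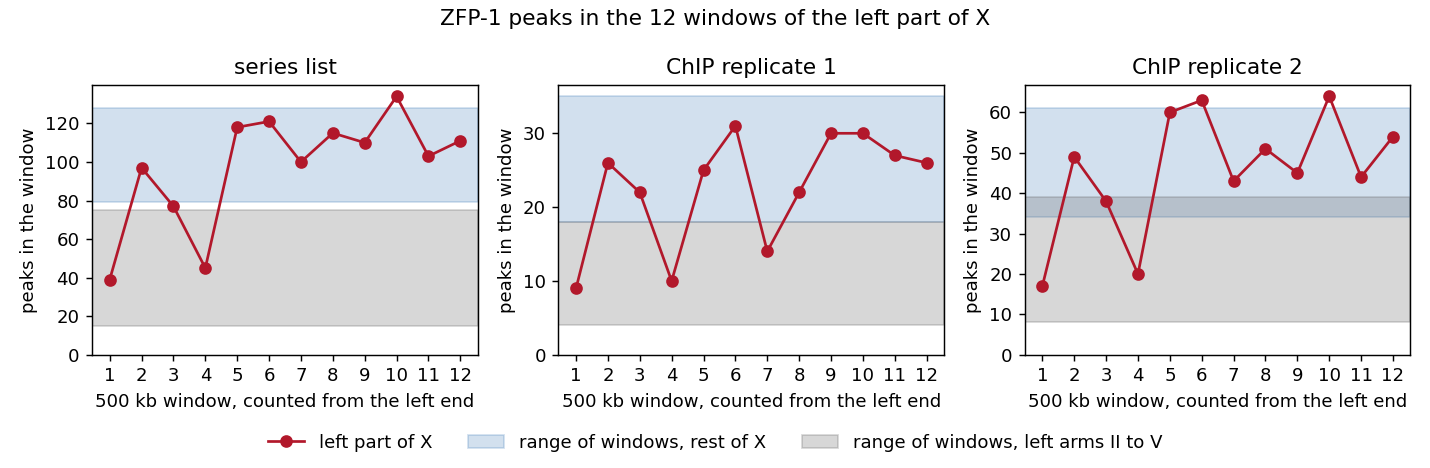
Points give the number of ZFP-1 peaks (vertical axis) in each 500 kb window of the left part of X, numbered from the left end (horizontal axis), in the series list and in each replicate. Blue and grey bands are the lowest to highest window in the rest of X and in the left arms of II to V. Windows 1 and 4 fall into the range of the left arms in all 3 lists, while windows 5 to 12 lie in or above the blue band in the series list and in replicate 2.

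The longest stretch without a series-list peak lay in window 4, on X from 1682824 to 1837789, and spanned 154966 bp. No peak of either replicate touched it, and it lay inside the longest gap of each replicate list on the left part of X, from 1579521 to 1853135 in replicate 1 and from 1604260 to 1845157 in replicate 2. The next gaps of the series list were both in window 1, from 239617 to 298895 (59279 bp) and from 311 to 59181 (58871 bp). The longest series-list gap in the rest of X was 78018 bp, and in the left arms 210623 bp. In replicate 1 the longest gap spanned 273615 bp on the left part, against 154387 bp on the rest of X and 388808 bp on the left arms. In replicate 2 it spanned 240898 bp, against 129175 bp and 319732 bp in the same order. Whether reads could be placed in these stretches is not given in the sources used here, and no input background was set beside them.

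Peaks on the left part of X were wider than those on the left arms, while the difference from the rest of X did not pass the test over all peaks and did among the better-scoring 50%. The median width in the series list was 335 bp (interquartile range 234 to 519 bp) on the left part, against 344 bp on the rest of X and 305 bp on the left arms. In replicate 1 the medians were 1304.5 bp on the left part, 1298 bp on the rest of X and 1157.5 bp on the left arms. In replicate 2 they were 1233 bp, 1289.5 bp and 1095 bp in the same order. On the left part, 51.3% of series-list peaks were wider than the median of the whole list (49.9% of all series-list peaks were), against 44.9% on the left arms. That difference of 6.45 percentage points (95% interval 2.69 to 10.2) passed Fisher's exact test (adjusted p = 0.00311). In each replicate, too, 49.9% of all peaks exceeded the median of their list. Replicate 1 had 53.5% of peaks wider than its median on the left part of X and 36.7% on the left arms (difference 16.9 points, Fisher's exact test, adjusted p = 5.81e-05). Replicate 2 had 53.1% and 36.7% (difference 16.5 points, Fisher's exact test, adjusted p = 9.58e-09). By single arm, the series-list difference was 9.67 points from II, 6.38 from III and 6.80 from V. From IV it was 2.64 points, with an interval that took in no difference (-3.35 to 8.60). In the replicates the difference from IV was 19.5 points in replicate 1 and 13.5 in replicate 2. Against the rest of X the share differed by -1.21 points (-4.65 to 2.22) in the series list, which did not pass (Fisher's exact test, adjusted p = 0.631). Among the better-scoring 50% of the series list the difference was -5.12 points (-9.13 to -1.33, Fisher's exact test, unadjusted p = 0.00908), with fewer wide peaks on the left part.

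Very broad peaks of the left part were found in the replicate lists and not in the series list. Peaks of 4 kb or more made up 6.69% of the left part's peaks in replicate 1 (19 of 284), against 6.30% on the rest of X and 2.38% on the left arms. In replicate 2 they made up 4.72% (27 of 572), against 6.21% and 2.13%. None of the 1214 series-list peaks of the left part reached 4 kb, against 5 of 2450 (0.204%) on the rest of X and 1 of 1540 (0.0649%) on the left arms. The widest was on X from 4144038 to 4147019 (2982 bp, series score 134.02). It lay inside the third widest replicate 1 peak of the left part, from 4140684 to 4148106 (7423 bp, score 2199.85), and inside the widest replicate 2 peak, from 4136596 to 4148159 (11564 bp, score 3100). The next in width were from 5779698 to 5782507 (2810 bp), 4960868 to 4963415 (2548 bp), 5819811 to 5822347 (2537 bp) and 5209281 to 5211760 (2480 bp), and all 5 met a peak in both replicates. The widest replicate 1 peak of the left part, from 2211643 to 2219765 (8123 bp, score 1226.45), held 8 series-list peaks.

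Neighbouring peaks lay closer together on the left part of X than on the left arms. The median gap between neighbours was 1439 bp in the series list on the left part, against 1227 bp on the rest of X and 3538 bp on the left arms. Gaps under 1 kb made up 41.7% of gaps on the left part (506 of 1213), against 28.3% on the left arms, a difference of 13.4 points (9.81 to 17.0) that passed Fisher's exact test (adjusted p = 2.10e-12). Over the whole series list 39.8% of gaps were under 1 kb. In replicate 2 the shares were 26.4% on the left part and 18.9% on the left arms (Fisher's exact test, adjusted p = 0.00312), beside 23.0% over its whole list. In replicate 1 they were 12.4% and 13.5% (difference -1.09 points, -6.02 to 4.16, Fisher's exact test, adjusted p = 0.784), beside 15.9% over its whole list, so the closer spacing was not seen there at this limit. The median gap of replicate 1 was nonetheless 9722 bp on the left part and 20173 bp on the left arms, and that of replicate 2 was 3705 bp and 8293 bp. Against the rest of X, where 45.3% of series-list gaps were under 1 kb, the difference of -3.59 points did not pass after adjustment (Fisher's exact test, adjusted p = 0.121). Gaps depend on density, so spacing is not a second measurement independent of it.

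**Figure D3:**
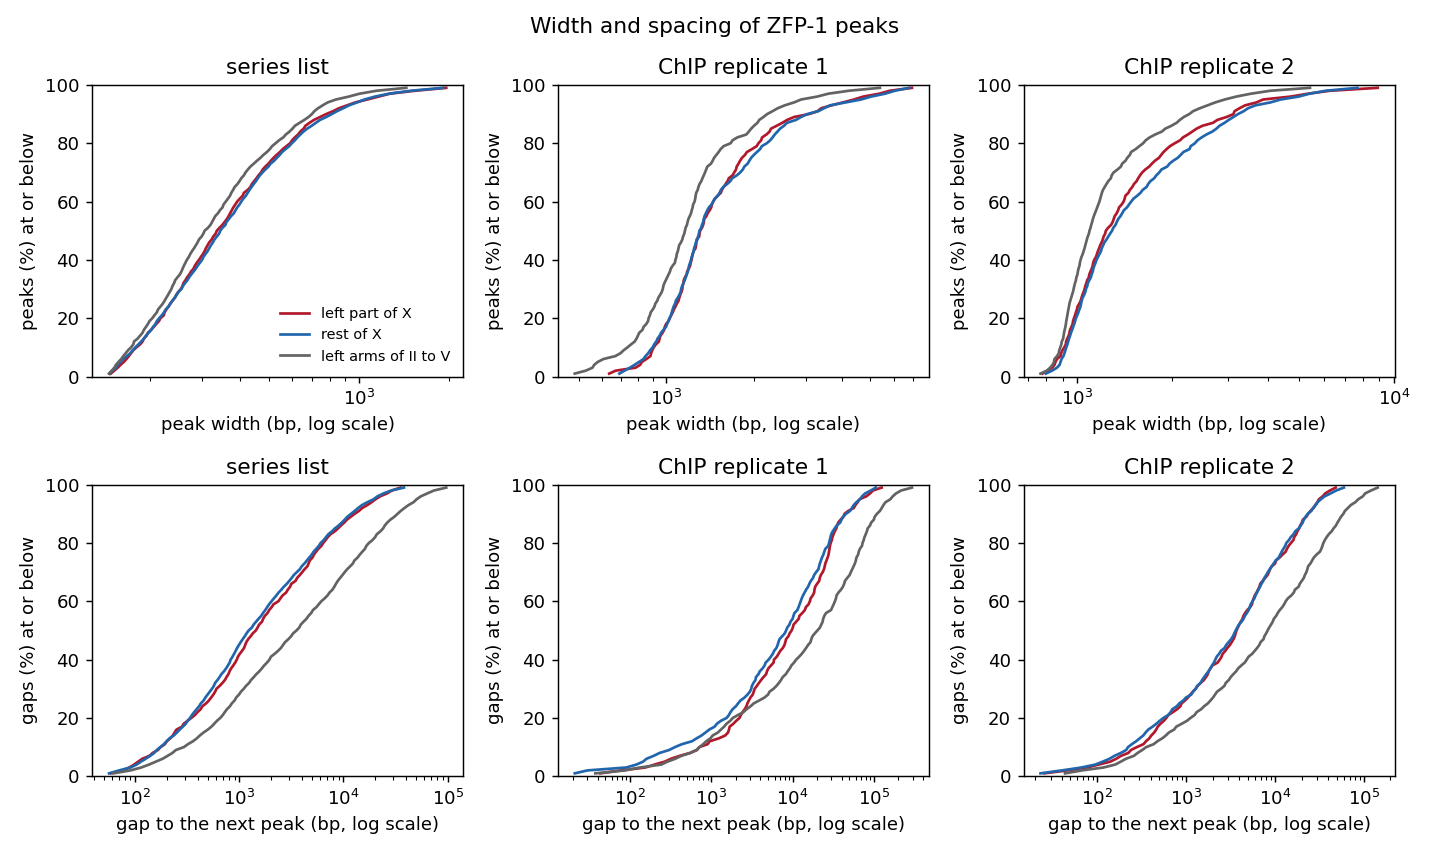
Curves give the share of peaks at or below a width (upper row) and of gaps between neighbouring peaks at or below a length (lower row), on log axes in bp, for the left part of X, the rest of X and the left arms of II to V in each list. The curves of the left part follow those of the rest of X, with medians of 335 and 344 bp for series-list widths, while the left arms lie to the left for width (305 bp).

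Peaks under 1 kb apart formed 708 chains on the left part, of which 471 were single peaks, 126 were pairs and 111 held 3 or more. Chains of 3 or more held 40.4% of the peaks on the left part, against 43.9% on the rest of X and 25.3% on the left arms. The longest chain, on X from 5972214 to 5986109, had 12 series-list peaks with scores from 3.52 to 172.63, and 7 of them met a peak in both replicates. The next, from 5810254 to 5822347, had 11 peaks, of which 6 met both. The third, from 4895300 to 4902344, had 10 peaks with scores up to 18.59. It held no replicate 1 peak and 3 replicate 2 peaks, the best at a score of 604.22, and signal below the replicates' peak calls was not measured here. At the other extreme, isolated peaks with no neighbour within 10 kb on either side made up 2.31% of the left part (28 peaks), 2.53% of the rest of X and 12.4% of the left arms in the series list. In replicate 1 they were 71 of the 284 peaks on the left part, 21.7% on the rest of X and 36.4% on the left arms. In replicate 2 the shares were 8.74%, 6.29% and 21.7% in the same order.

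Support by both replicates was 36.3% on the left part, and its differences from the rest of X and from the left arms did not pass the test over all peaks. Among better-scoring peaks both differences had p below 0.05 in Fisher's exact test, but without adjustment. Of the 1214 series-list peaks, 441 (36.3%, exact 95% interval 33.6 to 39.1%) met a peak in both replicates by at least 1 bp, beside 38.4% over the whole series list. A further 484 (39.9%) met replicate 2 alone, 4 (0.329%) met replicate 1 alone and 285 (23.5%) met neither. Over the whole series list these shares were 35.4%, 0.944% and 25.3%. The share met in both was 38.2% on the rest of X, a difference of -1.88 points (-5.17 to 1.46, Fisher's exact test, adjusted p = 0.489). It was 35.1% on the left arms, a difference of 1.26 points (-2.33 to 4.87, Fisher's exact test, adjusted p = 0.631). Among the better-scoring 50% of series-list peaks, the share met in both was lower on the left part than on the rest of X (difference -5.78 points, -10.8 to -0.81, Fisher's exact test, unadjusted p = 0.025). It was higher than on the left arms by 6.63 points (1.31 to 11.9, Fisher's exact test, unadjusted p = 0.0155). Peaks that met replicate 2, whether or not they met replicate 1, made up 76.2% on the left part and 69.7% on the left arms. That is a difference of 6.52 points (3.18 to 9.81), beside 73.8% over the whole series list. Replicate 2 peaks covered 16.0% of the left part and 6.09% of the left arms. Replicate 1 peaks covered 7.98% and 3.17%. An overlap of 1 bp is easier to meet where more sequence is covered, and these shares do not allow for that. Peaks that met replicate 1, whether or not they met replicate 2, made up 36.7% on the left part and 35.7% on the left arms. The difference was 0.941 points, beside 39.4% over the whole series list. Within the left part, 32.2% of peaks in the first 2 Mb, 33.5% in the next 2 Mb and 41.0% beyond met both replicates.

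Nearly every replicate 1 peak on the left part met a replicate 2 peak, while fewer than 50% of replicate 2 peaks met a replicate 1 peak. Of the 284 replicate 1 peaks, 281 (98.9%, 96.9 to 99.8%) met a replicate 2 peak, beside 97.8% over the whole list. Of the 572 replicate 2 peaks, 264 (46.2%, 42.0 to 50.3%) met a replicate 1 peak, beside 50.4% over the whole list. That share was 49.4% on the rest of X and 49.1% on the left arms, and neither difference passed (Fisher's exact test, adjusted p = 0.407 and 0.496). The 308 replicate 2 peaks with no replicate 1 peak had a median score of 129, against 1012 for the 264 with one. Over the 260 pairs of peaks on the left part that were each other's best overlap, log10 scores correlated with Pearson r = 0.78 and Spearman rho = 0.83, a description across peaks. The replicate 2 peak of a pair was the wider in 202 of the 260.

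**Figure D4:**
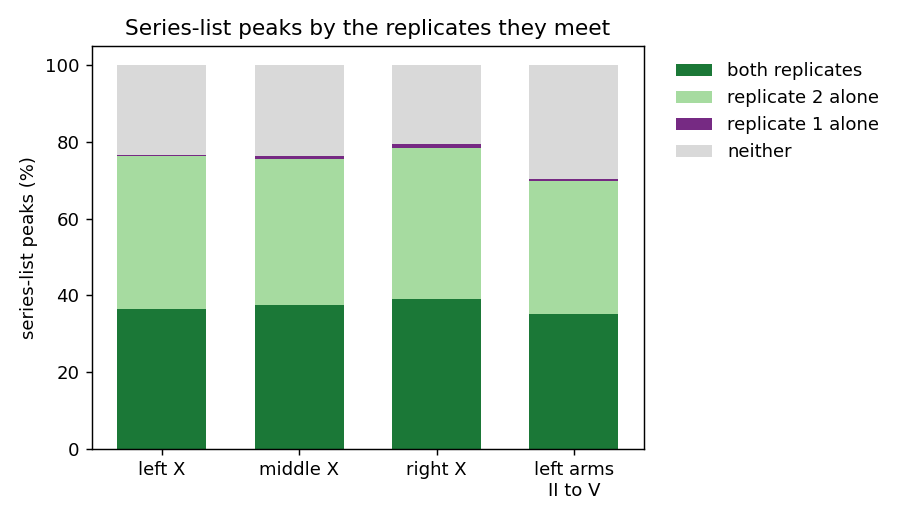
Stacked bars give the share of series-list peaks (vertical axis, %) that met both replicates, replicate 2 alone, replicate 1 alone or neither, in the left, middle and right parts of X and in the left arms of II to V. Peaks met in both make up 36.3% on the left part of X, 37.4% on the middle part, 39.0% on the right part and 35.1% on the left arms.

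High series scores made up a smaller share of the peaks on the left part of X than on the left arms. The replicates' own scores differed less. The median series score was 13.9 on the left part, against 13.6 on the rest of X and 20.4 on the left arms. The better-scoring 50% of the series list took in 44.9% of the peaks on the left part and 56.2% on the left arms, a difference of -11.3 points (-15.1 to -7.59) that passed Fisher's exact test (adjusted p = 2.05e-08). The highest-scoring 10.0% of the list took in 74 of the 1214 peaks (6.10%), against 14.9% of peaks on the left arms and 6.24% on the rest of X. These are shares of peaks and not densities. Per Mb, the better-scoring 50% were 1.89 times as dense on the left part as on the left arms (1.69 to 2.10). For the highest-scoring 10% the ratio was 0.964. In replicate 1 the better-scoring 50% took in 48.2% on the left part and 51.9% on the left arms (difference -3.67 points, -11.1 to 3.84, Fisher's exact test, adjusted p = 0.552). In replicate 2 it took in 46.0% and 50.9% (difference -4.96 points, -10.3 to 0.405, Fisher's exact test, adjusted p = 0.177). The highest-scoring 10.0% of each replicate took in 8.80% of the left part's peaks and 9.05% of the left arms' in replicate 1, and 9.09% and 7.38% in replicate 2. The difference in scores passed the test in the series list only, and the difference between lists was not tested.

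Among peaks met in both replicates the series scores were again lower on the left part than on the left arms. On the left part these 441 peaks had a median series score of 41.2, against 42.3 on the rest of X and 94.5 on the left arms. Counting each replicate peak once, replicate 1 peaks that met a replicate 2 peak had median scores of 188 on the left part, 178 on the rest of X and 224 on the left arms. Replicate 2 peaks that met a replicate 1 peak had medians of 1012, 974 and 1144 in the same order. Taken instead over the series-list peaks met in both, a replicate peak counts once for each of them. The medians in the same order were then 316, 253 and 274 in replicate 1 and 1471, 1472 and 1412 in replicate 2. The order of the parts by replicate score thus depended on the counting. When the whole series list was divided into 5 steps of 20% by score, 55.0% of left-part peaks in the fourth step met both replicates (48.5 to 61.5%), against 58.9% on the rest of X and 30.7% on the left arms (25.6 to 36.1%). In the third step the shares were 24.4%, 28.3% and 14.8%, and in the highest step 90.8%, 95.4% and 84.8%. In the fourth step the intervals of the left part and the left arms did not overlap, while in the highest step they did. How the series score was computed is not given in the sources used here, and its part in these differences was not tested. Replicate peaks also covered more of the left part than of the left arms, which the shares by step do not allow for.

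**Figure D5:**
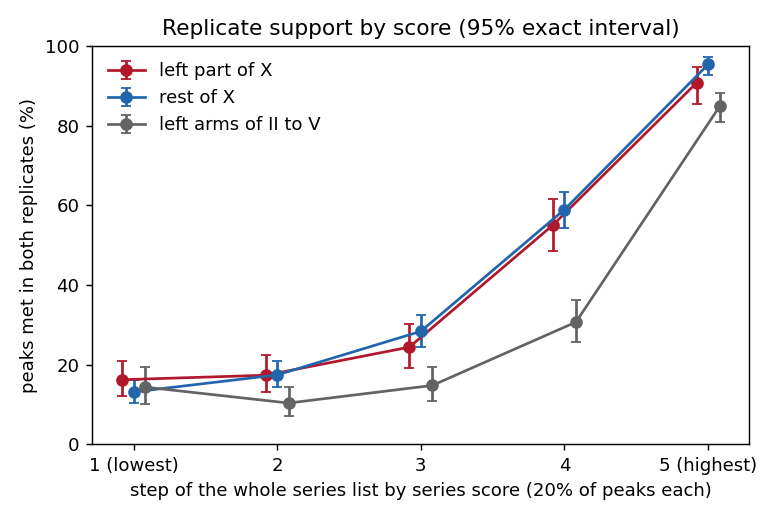
Points give the share of series-list peaks met in both replicates (vertical axis, %) in each 20% step of the whole list by series score (horizontal axis, lowest to highest), for the left part of X, the rest of X and the left arms of II to V, with exact 95% intervals over peaks. In the fourth step the left part stands at 55.0% and the left arms at 30.7%.

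The 15 highest-scoring series-list peaks of the left part that met both replicates had series scores from 166.43 to 201.17 and widths from 456 to 1865 bp. They ranked between 85 and 386 of the 13878 peaks in the whole list. The first was on X from 787841 to 788380, with a series score of 201.17, a replicate 1 peak at 341.66 and a replicate 2 peak at 2251.40. It was followed by the site from 4214226 to 4216090 (series score 198.70), which lay in a replicate 2 peak of 9493 bp with 8 series-list peaks. The site from 4388239 to 4389404 (197.68) had the best replicate 1 score of the 15, at 2124.44. The next were from 3048755 to 3049821 (194.83), 3990447 to 3991337 (193.23), 2667769 to 2668358 (191.99) and 1524510 to 1525607 (191.82). A second site lay close to the last of these, from 1528959 to 1529549 (182.07). The sites from 974599 to 975234, 1960807 to 1961748 and 348036 to 348726 scored 181.49, 174.39 and 173.62. The remaining 4 were from 2598389 to 2599592, 5984266 to 5985180, 4015896 to 4017177 and 3945639 to 3946094. Among the 15, the replicate 2 peak was in the highest-scoring 10% of its list at 8 sites, and at 6 of those it stood at 3100, a value shared by 487 peaks of that list. The replicate 1 peak was in the highest-scoring 10% of its list at 3 sites, and over all 15 sites its score ran from 248.57 to 2124.44. The order of sites thus differed between lists.

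By the replicates' own scores other sites led. In replicate 1, the peaks from 4221435 to 4223686 and from 4519478 to 4526958 both scored 3100 and were the only peaks of the left part at or above that value, while 38 of replicate 2 were. The third in replicate 1, from 592651 to 594356 (3097.91), overlapped a replicate 2 peak at 3100, from 592493 to 595217. The highest replicate 2 score on the left part was 3122.01, from 4958582 to 4964579.

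The boundary at base 6140000 fell in a gap of the series list. The last peak inside, from 6136446 to 6136798 (353 bp, score 20.68), and the first outside, from 6145892 to 6146208 (317 bp, score 28.54), both met replicate 2 alone. The first peak of the chromosome, from 1 to 310, scored 4.36 and met both replicates. No gene is assigned to any site, since the gene table used here is on another build than the peak coordinates.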

How the data were processed

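The authors deposited 3 peak lists, 1 for the series and 1 for each ChIP replicate, with start, end and a score per peak. Coordinates refer to WS220, per the file headers, and are given from 1. The lines of the series list name MACS v2 as their source and those of the replicate lists name MACS, per the file headers and columns. Per the submitters' processing notes, BWA and the build ce10 were used. Pooling, thresholds and the use of input are not given in the sources used here. The deposited score has no stated scale and was used only to rank peaks within 1 list, or to set chromosome parts side by side within 1 list, apart from a correlation of replicate scores. Read depth is unknown.

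Positions were analysed with Python 3.11.15, numpy 2.4.6, pandas 2.3.3, scipy 1.17.1 and statsmodels 0.14.6, and overlaps were checked with bedtools 2.31.1. The length of X was its last base covered by a peak, 17714968. Densities were compared by exact two-sided binomial tests with exact intervals, and shares by two-sided Fisher's exact tests with Newcombe intervals. Benjamini-Hochberg adjustment was over 30 tests: 5 measures, 2 comparisons and 3 lists. Intervals cover counting error over peaks, which are not independent replicates. Arm ends are approximate values recalled from genetic maps of the species, and no map was consulted here. The code was tested on simulated data. Alternatives changed the list, overlap, score, gap and arm limits.

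Sites named in the text are the 15 best-scoring peaks met in both replicates, the 5 widest, the 3 longest gaps and chains, the leading replicate peaks, the extreme windows and the peaks at the boundary. The window, measures and lists were chosen with earlier results of these data known.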

Additional observations from a re-analysis of the deposited data

How the results depend on the processing

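Of 77 alternatives to 10 results, 54 kept the direction and the side of an unadjusted p of 0.05, or stayed within the interval. The others follow, with some that kept both beside them (the ratio with 5 kb merging and 1 end of some ranges with 1 replicate). The cause was not tested. Against the left arms, the density ratio of 2.36 became 2.65 for covered bases, 1.36 with peaks under 5 kb apart merged and 0.964 for the highest-scoring 10% of peaks. The ratio to the rest of X, 0.934, became 0.888 (p = 0.0415) for peaks met in both replicates and 0.908 (p = 0.0167) with the right part alone, both exact binomial tests, 1.01 for the highest-scoring 10% of replicate 2 peaks and 1.09 without the first 2 Mb. The difference in support from the rest of X, -1.88 points, became 0.125 with reciprocal overlap of 50% and -5.78 among better-scoring peaks. From the left arms, 1.26 points became 6.63 among better-scoring peaks, -1.44 with arms of equal share of length, and 0.941 to 6.52 with 1 replicate. The difference in wide peaks from the rest of X became -5.12 points among better-scoring peaks. In close gaps, -3.59 points from the rest of X became -2.51 (500 bp limit), -2.18 (2 kb), -0.446 (better-scoring peaks), -2.63 (without the first 500 kb) and -3.77 to -0.492 with 1 replicate, none below 0.05. From the left arms it ran from -1.09 in replicate 1 to 7.58 in replicate 2. In high scores, 1.34 points from the rest of X became -0.149 for the highest 10%, and -1.14 to 3.30 with 1 replicate. From the left arms it was -4.96 to -3.67 with 1 replicate. The settings of the highest-scoring 10% for density, the first 2 Mb and merging under 5 kb were chosen after seeing the data. No paired analysis was possible because input has no peak list analysed here.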

Other observations

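The 4 series-list peaks that met replicate 1 alone lay on X from 59182 to 59396, 1379488 to 1379732, 4512150 to 4512295 and 5707810 to 5708088, and were chosen after their values were seen. Their replicate 1 peaks scored 74.90, 104.80, 1051.41 and 151.59. The third of these replicate 1 peaks, from 4512258 to 4514942, ranked 541 of 3559 in its list and overlapped 2 series-list peaks. The one at 4512150 (146 bp, score 1.81) only touched its edge, and the other met both replicates. Meeting replicate 1 alone thus describes the series-list peak and not the replicate 1 peak. Over the left part, 3 replicate 1 peaks met no replicate 2 peak, with a median score of 104.80.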
